A study of Mus musculus with 8 samples.

Results

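The glucocorticoid receptor, its close relative the mineralocorticoid receptor and 8 genes that glucocorticoids are known to act on were followed across the hearts of wild-type and Piezo1-Cko mice after sham or TAC surgery. The set holds 10 of the 54532 genes listed in the deposited table: the receptors Nr3c1 and Nr3c2, the receptor targets Tsc22d3, Fkbp5, Sgk1 and Zbtb16, the kinase gene Sik1, and the growth-restraining genes Cdkn1a, Errfi1 and Tob2. The 10 were selected by gene symbol, with their levels and differences in these same 8 libraries already known. Their differences between groups are therefore given as a description, and where the fit across all genes calls one of them, that call is no independent test. RNA was sequenced from heart tissue of C57BL/6 mice in 4 groups of 2 libraries each: Piezo1-Cko hearts after TAC surgery (Cko TAC), Piezo1-Cko hearts after sham surgery (Cko sham), wild-type hearts after TAC surgery (WT TAC) and wild-type hearts after sham surgery (WT sham). TAC commonly stands for transverse aortic constriction, which loads the left ventricle with pressure, and sham surgery leaves the aorta open. Piezo1 encodes a mechanically gated cation channel. The labels used here give neither the cells nor the exons that the Piezo1-Cko allele affects, nor the mice's age, sex, time after surgery or time of day at collection. Nor do they tie each library to an animal of its own. The p-values below therefore speak of the variation among these libraries alone, and part of that may be technical.

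Glucocorticoids enter the cell and bind the glucocorticoid receptor, the product of Nr3c1, which waits in the cytoplasm in a complex of HSP90 and cochaperones. The bound receptor moves to the nucleus and acts on genes near DNA elements made of a pair of inverted arms. The mineralocorticoid receptor, the product of Nr3c2, binds glucocorticoids as well as aldosterone, and heart muscle cells hold little of the enzyme that would inactivate glucocorticoids before they reach it. Tsc22d3 (the gene of GILZ), Fkbp5, Sgk1, Zbtb16 and Per1 are textbook targets that climb within hours of hormone. Fkbp5 closes a loop, because its protein FKBP51 lowers the affinity of the receptor for hormone.

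The letters that the receptor reads are shown first, in the windows from 250 bases before to 50 bases after annotated transcript starts (RefSeq, mouse GRCm38.p6, 300 bases each). The 6-base arm AGAACA was searched on either strand, and so was the whole element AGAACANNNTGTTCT, which reads the same on both strands, so each whole element also counts as 2 arms. The table held 16 windows for 7 of the 10 genes, 6 of them for Sgk1 and 3 for Tsc22d3, and none for Nr3c1, Sik1 and Zbtb16. An arm stood in 4 of those 16 windows, 3 of Sgk1 and 1 of Tsc22d3, and in 19.0% of all 32851 mouse windows. The whole element stood in 3 of the 32851 windows (0.00913%), and 1 of these was a window of Sgk1. That window and the window of the longest Tsc22d3 transcript are printed with each arm in capitals.
Sgk1 chr10:21993640-21993939 (+): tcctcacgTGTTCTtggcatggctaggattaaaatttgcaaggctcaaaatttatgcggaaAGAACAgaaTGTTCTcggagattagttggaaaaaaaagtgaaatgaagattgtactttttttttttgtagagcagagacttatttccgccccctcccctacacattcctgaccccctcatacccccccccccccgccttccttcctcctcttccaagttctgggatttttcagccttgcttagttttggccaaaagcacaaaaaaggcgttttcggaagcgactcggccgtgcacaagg
Tsc22d3 chrX:140600473-140600772 (-): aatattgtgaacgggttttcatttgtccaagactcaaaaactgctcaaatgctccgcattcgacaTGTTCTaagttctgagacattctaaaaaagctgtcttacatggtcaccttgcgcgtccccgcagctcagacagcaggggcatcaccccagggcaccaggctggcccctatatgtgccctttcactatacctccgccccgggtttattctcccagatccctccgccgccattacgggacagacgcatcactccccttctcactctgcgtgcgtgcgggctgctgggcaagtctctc
The Sgk1 element lies at chr10:21993701-21993715, begins 189 bases before the start site at position 21993890, and is inside the listed gene, since the Sgk1 transcript with the most upstream start begins 111517 bases before it. The closest matches in windows of other glucocorticoid-responsive genes are set under it, with the letters that match the fixed letters of the element in capitals.
Sgk1 chr10:21993701-21993715 (+): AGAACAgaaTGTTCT
Trim63 chr4:134314911-134314925 (+): tGAACAgtcTGTTCT
Fam107a chr14:8309884-8309898 (-): tGgACAtggTGTTCT
The Trim63 run has 1 mismatch and the Fam107a run has 2. Runs with at most 1 mismatch stood in 0.164% of all windows, and runs with at most 2 in 1.84%. A match is a run of letters and not a measured binding site.

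Before the levels, some facts of the libraries bear on every comparison. The deposited values are FPKM, which divide fragments by gene length and by a library size, so levels can be set side by side between genes. The reads recovered from them summed to between 15574769 and 17313084 per library. The library size in the values was not that sum. It was 0.886 to 0.945 times the recovered reads in the sham libraries and 1.02 to 1.10 times in the TAC libraries. The WT sham libraries stood apart from the other 6 at Gapdh, a glycolytic enzyme gene, which was at 1.55 to 2.84 FPKM in the Cko TAC, Cko sham and WT TAC libraries against 81.1 and 122 FPKM in WT sham, and at the apelin receptor gene Aplnr, at 41.1 to 69.9 FPKM against 10.4 and 11.5 FPKM in WT sham. Both comparisons against WT sham rest on these libraries. The differences of Cko TAC from Cko sham and from WT TAC use no WT sham level, but their SE and calls do, because all 8 libraries share 1 estimate of the residual variance. Without WT sham replicate 1 or 2, the genes called for TAC in Piezo1-Cko numbered 107 or 99 against 208, and those called for Cko minus WT under TAC numbered 1 in either case against 0. Summed FPKM of 5 heart muscle cell markers (Myh6, Tnnt2, Actn2, Ryr2, Pln) ran from 2461 to 3180 in the 4 TAC libraries and from 4146 to 5122 in the 4 sham libraries, and these markers were abundant in all 8. Myh6 was the largest part, at 1145 to 1607 FPKM under TAC and 2012 to 2618 FPKM under sham. Actn2 overlapped between surgeries in both genotypes. Ryr2 was at 29.2 and 23.0 FPKM in WT TAC against 27.2 and 25.0 FPKM in WT sham. In Piezo1-Cko Ryr2 was lower in both TAC libraries. Macrophage marker sums ran from 175 to 244 FPKM under TAC and from 128 to 147 FPKM under sham. In whole tissue, fewer cells of a type and less RNA of the markers per cell cannot be told apart. Total Piezo1 was at 5.24 and 3.89 FPKM in Cko TAC, 3.83 and 3.23 in Cko sham, 5.38 and 5.83 in WT TAC, and 2.35 and 3.09 in WT sham, and with the deleted exons not named this gene total does not check the allele.

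The receptor pair came first, and TAC hearts carried less of the mineralocorticoid receptor transcript beside a glucocorticoid receptor transcript that varied little. Nr3c1 (ENSMUSG00000024431, chr18:39410545-39491301, minus strand) was at 13.8 and 11.7 FPKM in Cko TAC, 12.9 and 11.3 FPKM in Cko sham, 14.1 and 12.3 FPKM in WT TAC, and 10.3 and 9.79 FPKM in WT sham. Its 8 values stayed within a 1.44-fold span, and the WT sham libraries were the lowest, below both WT TAC and both Cko sham libraries. Nr3c2 (ENSMUSG00000031618, chr8:76899442-77245012, plus strand) was at 1.90 and 1.27 FPKM in Cko TAC, 2.98 and 2.74 FPKM in Cko sham, 1.74 and 1.34 FPKM in WT TAC, and 3.30 and 2.50 FPKM in WT sham. All 4 TAC libraries were below all 4 sham libraries, in both genotypes, while the genotypes overlapped under either surgery. On the log2(FPKM + 0.5) scale, on which every fold change here is given, the TAC minus sham difference of Nr3c2 was -0.71 (SE 0.208) in Piezo1-Cko and -0.74 (SE 0.208) in wild type. For Nr3c1 it was 0.074 (SE 0.141) in Piezo1-Cko and 0.377 (SE 0.141) in wild type. That scale understates the change of a gene as low as Nr3c2.

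Nr3c1 was the more abundant receptor transcript in every library. The ratio of Nr3c1 to Nr3c2 FPKM was 7.28 and 9.19 in Cko TAC, 4.33 and 4.10 in Cko sham, 8.11 and 9.19 in WT TAC, and 3.11 and 3.91 in WT sham. The 4 TAC values (7.28 to 9.19) lay above the 4 sham values (3.11 to 4.33) with no overlap, and the genotypes shared their range under TAC. The ratio was formed from genes chosen with their values known, and no test was made of it.

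**Figure D1:**
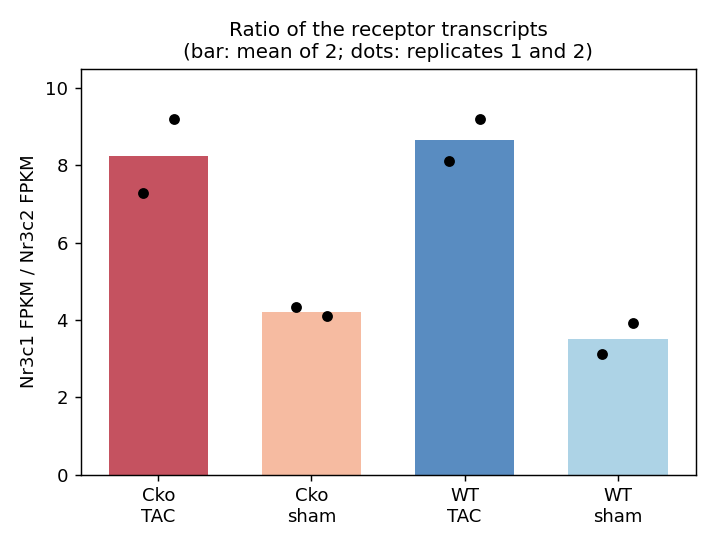
Ratio of Nr3c1 FPKM to Nr3c2 FPKM (vertical axis, no unit) in each library, for Cko TAC, Cko sham, WT TAC and WT sham hearts. Bars are the mean of 2 libraries and dots are replicates 1 and 2. The TAC values sit between 7.28 and 9.19 and the sham values between 3.11 and 4.33.

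The textbook target Tsc22d3, whose protein GILZ restrains NF-kB and AP-1 in immune cells, was highest in WT sham hearts. Tsc22d3 (ENSMUSG00000031431, chrX:140539528-140600659, minus strand) was at 14.6 and 17.6 FPKM in Cko TAC, 18.4 and 17.4 FPKM in Cko sham, 23.8 and 18.1 FPKM in WT TAC, and 48.8 and 41.7 FPKM in WT sham. The 2 WT sham libraries stood above the other 6, which lay between 14.6 and 23.8 FPKM. Among those 6, the Cko TAC and Cko sham libraries overlapped, and both WT TAC libraries were above both Cko TAC libraries by a small margin. The group means of Tsc22d3 exceeded those of the other 9 genes in Cko TAC and WT sham, while Cdkn1a had the higher mean in WT TAC and Sgk1 in Cko sham. Its difference was -1.10 (SE 0.170) for TAC minus sham in wild type, -0.15 (SE 0.170) for TAC minus sham in Piezo1-Cko, -1.31 (SE 0.170) for Cko minus WT under sham and -0.36 (SE 0.170) under TAC.

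Tob2 encodes an antiproliferative protein of the BTG/TOB family that helps shorten mRNA tails, and it had almost the same profile. Tob2 (ENSMUSG00000048546, chr15:81848272-81858796, minus strand) was at 5.36 and 4.67 FPKM in Cko TAC, 5.75 and 7.34 FPKM in Cko sham, 6.33 and 7.93 FPKM in WT TAC, and 18.8 and 16.9 FPKM in WT sham. WT sham was again apart from the other 3 groups, and the Cko TAC libraries were the lowest. The difference was -1.27 (SE 0.169) for TAC minus sham in wild type, -0.35 (SE 0.169) in Piezo1-Cko, -1.39 (SE 0.169) for Cko minus WT under sham and -0.46 (SE 0.169) under TAC.

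Sik1, the gene of salt-inducible kinase 1, which holds back CREB coactivators and class II histone deacetylases, divided the genotypes under both surgeries. Sik1 (ENSMUSG00000024042, chr17:31844248-31855792, minus strand) was at 3.96 and 3.89 FPKM in Cko TAC, 3.96 and 2.97 FPKM in Cko sham, 6.66 and 11.3 FPKM in WT TAC, and 10.8 and 16.1 FPKM in WT sham. All 4 Cko libraries lay below all 4 WT libraries, and within a genotype the surgeries overlapped. Cko minus WT was -1.80 (SE 0.276) under sham, the largest such difference of the 10, and -1.06 (SE 0.276) under TAC.

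The cell cycle inhibitor gene Cdkn1a, which encodes p21 and answers to p53 as well as to glucocorticoids, had the same order. Cdkn1a (ENSMUSG00000023067, chr17:29090976-29100727, plus strand) was at 14.98 and 11.9 FPKM in Cko TAC, 10.53 and 8.64 FPKM in Cko sham, 25.1 and 20.6 FPKM in WT TAC, and 32.1 and 16.9 FPKM in WT sham. The 4 Cko libraries were again below the 4 WT libraries, and the WT sham pair spread widely enough to enclose both WT TAC values. Cko minus WT was -1.25 (SE 0.288) under sham and -0.75 (SE 0.288) under TAC.

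Sgk1, the serum- and glucocorticoid-regulated kinase gene that carries the whole element printed above, showed a narrower range. Sgk1 (ENSMUSG00000019970, chr10:21882184-21999903, plus strand) was at 13.9 and 17.1 FPKM in Cko TAC, 18.6 and 17.4 FPKM in Cko sham, 19.8 and 21.1 FPKM in WT TAC, and 21.1 and 31.0 FPKM in WT sham. Its 4 Cko libraries were below its 4 WT libraries, but the nearest values, 18.6 and 19.8 FPKM, were closer than replicates of WT sham. Cko minus WT was -0.49 (SE 0.193) under sham and -0.39 (SE 0.193) under TAC.

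Fkbp5, the feedback cochaperone gene, was lowest in Cko sham hearts. Fkbp5 (ENSMUSG00000024222, chr17:28399094-28517527, minus strand) was at 3.95 and 2.89 FPKM in Cko TAC, 1.28 and 2.29 FPKM in Cko sham, 4.05 and 5.18 FPKM in WT TAC, and 4.51 and 2.99 FPKM in WT sham. Both Cko TAC libraries were above both Cko sham libraries, with a TAC minus sham difference of 0.80 (SE 0.278) in Piezo1-Cko and 0.28 (SE 0.278) in wild type. Cko minus WT was -0.91 (SE 0.278) under sham and -0.39 (SE 0.278) under TAC.

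Zbtb16, which encodes the zinc finger protein PLZF, was the lowest of the targets. Zbtb16 (ENSMUSG00000066687, chr9:48654297-48836222, minus strand) was at 1.32 and 0.953 FPKM in Cko TAC, 1.07 and 1.63 FPKM in Cko sham, 2.15 and 5.04 FPKM in WT TAC, and 1.86 and 2.07 FPKM in WT sham. WT TAC replicate 2 was higher than any other library, and the 4 Cko libraries were below the 4 WT libraries. Cko minus WT was -1.23 (SE 0.339) under TAC and -0.43 (SE 0.339) under sham.

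Errfi1, whose protein MIG6 is a feedback inhibitor of the EGF receptor, was at 7.84 and 4.56 FPKM in Cko TAC, 10.8 and 7.71 FPKM in Cko sham, 10.8 and 9.32 FPKM in WT TAC, and 12.2 and 19.1 FPKM in WT sham (ENSMUSG00000028967, chr4:150853919-150868892, plus strand). Its group means were lower after TAC and lower in Piezo1-Cko hearts, but Cko TAC and Cko sham overlapped at this gene, and it passed the threshold given below in no comparison. TAC minus sham was -0.57 (SE 0.301) in Piezo1-Cko and -0.58 (SE 0.301) in wild type, and Cko minus WT was -0.70 (SE 0.301) under TAC and -0.71 (SE 0.301) under sham.

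**Figure D2:**
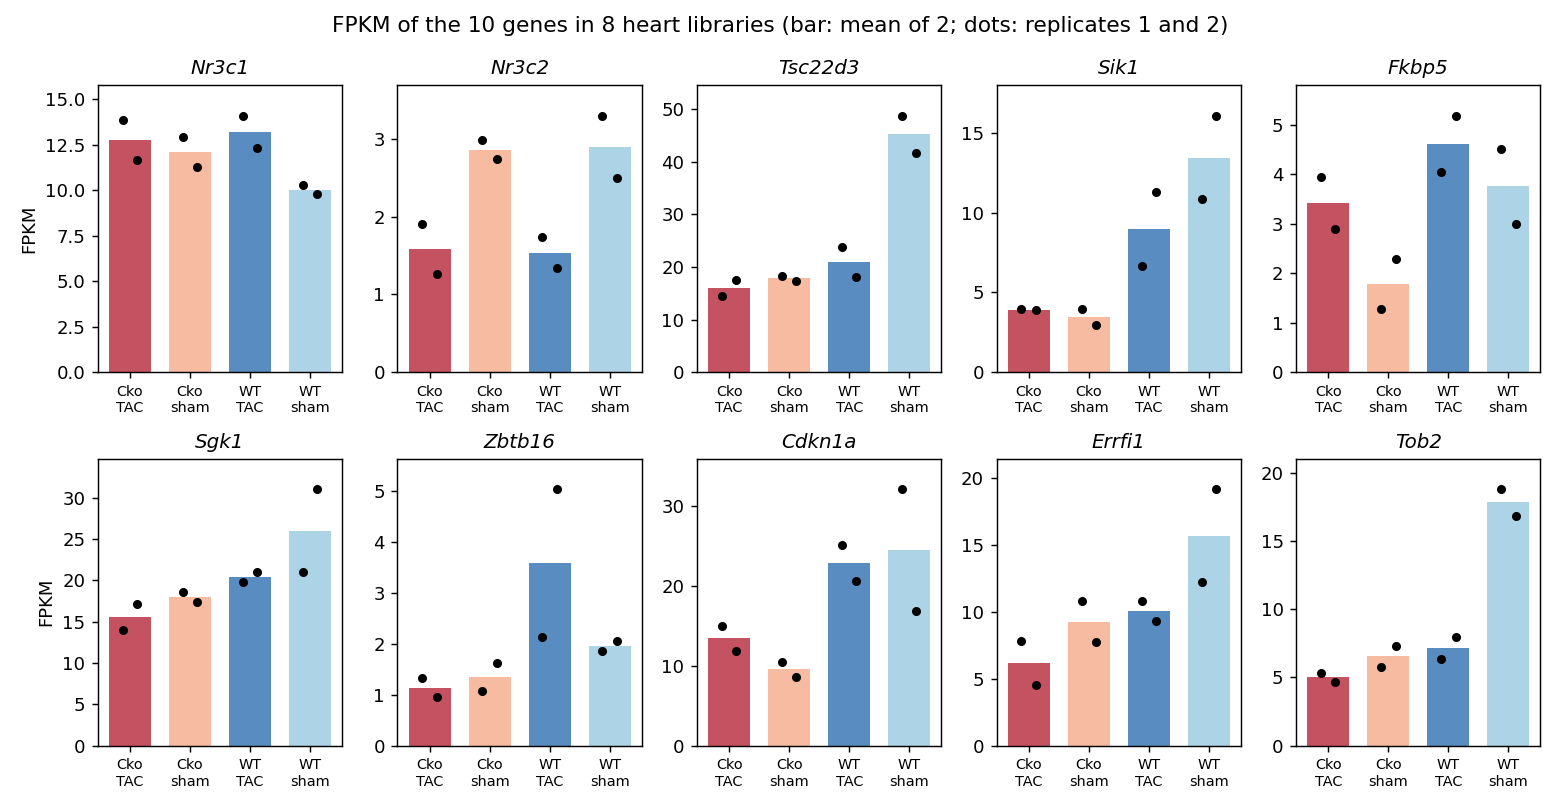
FPKM (vertical axes, from 0, scaled to each gene) of the 10 genes in Cko TAC, Cko sham, WT TAC and WT sham hearts. Bars are the mean of 2 libraries and dots are replicates 1 and 2. WT sham bars are the tallest for 7 genes and WT TAC bars for 3, and no Cko group has the highest mean of any gene.

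Seen together, the group means of the 10 genes were highest in WT sham for 7 and in WT TAC for 3, and lowest in Cko TAC for 5, in Cko sham for 3, in WT TAC for 1 and in WT sham for 1. The mean of the 8 responsive genes, each centred on its own 8-library mean of log2(FPKM + 0.5), was -0.34 and -0.52 in Cko TAC, -0.43 and -0.42 in Cko sham, 0.14 and 0.34 in WT TAC, and 0.61 and 0.61 in WT sham. The 4 Cko libraries lay together below both WT groups, and the 2 WT groups were apart from each other.

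For genotype, both Cko libraries were below both WT libraries at 8 of the 10 genes under sham, where 20.3% of the 13928 tested genes were, and at 8 of the 10 under TAC, where 19.4% were. Sik1, Cdkn1a, Sgk1 and Zbtb16 had all 4 Cko libraries below all 4 WT libraries, which held for 2.35% of tested genes. The genes were chosen from these comparisons, and nothing is read from those shares. The difference averaged over surgeries, a comparison added after the data had been seen, was -1.43 (SE 0.196) for Sik1, -0.995 (SE 0.204) for Cdkn1a, -0.92 (SE 0.1195) for Tob2 and -0.84 (SE 0.1205) for Tsc22d3. At the other end it was 0.103 (SE 0.09998) for Nr3c1 and 0.0082 (SE 0.147) for Nr3c2. The responsive genes were chosen with their order known, so nothing is read from the contrast with the receptor transcripts.

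**Figure D3:**
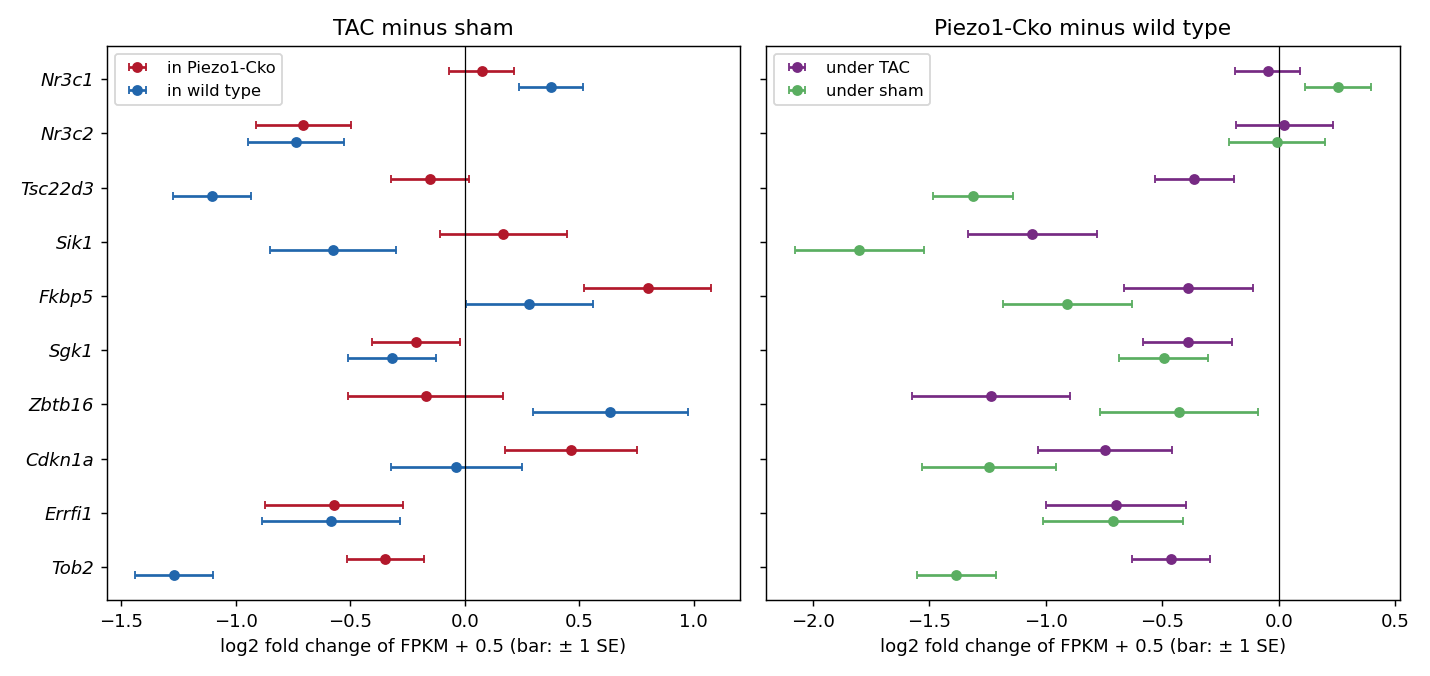
Log2 fold change of FPKM + 0.5 (horizontal axes) of the 10 genes, with bars of 1 SE. The left panel gives TAC minus sham in Piezo1-Cko and in wild type, and the right panel gives Piezo1-Cko minus wild type under TAC and under sham. In the left panel Tsc22d3 and Tob2 lie near -1.10 and -1.27 in wild type and at -0.15 and -0.35 in Piezo1-Cko, and in the right panel 8 genes lie left of 0 under both surgeries.

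Across all genes the genotype comparisons held very few calls. The limma test, with Benjamini-Hochberg adjustment and a threshold of 0.05, called 3 genes for Cko minus WT under sham (0.0215%), which were Aplnr and Gm49326, higher, and Gapdh, lower. It called 0 under TAC (0%), where 1269 genes had an unadjusted p under 0.05 and limma-voom on the recovered reads also called 0. It called 1 averaged over surgeries (0.00718%) and 1 for the interaction, the Cko response to TAC minus the WT response (0.00718%), both Gapdh. None of the 10 genes passed in any of these 4 comparisons, and limma-voom called 1 of them, Tob2 under sham.

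For surgery, the same test called 1842 genes in wild type (13.2%; 5.57% higher and 7.65% lower), 208 in Piezo1-Cko (1.49%, with 0.948% higher) and 3537 averaged over genotypes (25.4%; 11.9% higher and 13.5% lower). The 10 genes were chosen with these differences known, so their calls are counted as a description and nothing is read from them. In wild type 2 of the 10 were called, Tsc22d3 and Tob2, both lower after TAC. The count was 1 when either WT sham library, or WT TAC replicate 1, was left out. No gene of the 10 was called in Piezo1-Cko. Averaged over genotypes 3 were called, all lower after TAC: Tob2 with -0.81 (SE 0.1195), Nr3c2 with -0.72 (SE 0.147) and Tsc22d3 with -0.63 (SE 0.1205), and without Cko sham replicate 1 the count was 1. In Piezo1-Cko alone TAC minus sham was -0.15 (SE 0.170) for Tsc22d3 and -0.35 (SE 0.169) for Tob2, so these averages came mostly from wild type. For Nr3c2 it was -0.71 (SE 0.208) there. In wild type 4 of the 10 had both TAC libraries below both sham libraries (30.9% of tested genes did). With genotypes joined, 1 had all 4 TAC libraries below all 4 sham libraries (14.6%) and 0 had them above (13.1%).

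The interaction was 0.95 (SE 0.241) for Tsc22d3 and 0.92 (SE 0.239) for Tob2, which were lower after TAC by less in Piezo1-Cko than in wild type. It was 0.74 (SE 0.391) for Sik1 and -0.81 (SE 0.480) for Zbtb16. These values share the WT sham and Cko sham libraries with the surgery and genotype differences above, and the Tsc22d3 and Tob2 values turn on the high WT sham pair.

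A wider list of 34 other glucocorticoid-responsive genes, of which 33 could be tested (Hif3a, at 0.00973 to 0.409 FPKM, could not), was mostly lower in Piezo1-Cko hearts. This list too was chosen with earlier results known, so its counts and medians are a description and nothing is read from them. Where the same value was taken over all tested genes, it is set beside them. Group means were highest in WT sham for 22 of the 33, in WT TAC for 5, in Cko TAC for 4 and in Cko sham for 2. Under sham, 28 of the 33 were lower in Piezo1-Cko hearts and 5 higher, 23 with both Cko libraries below both WT libraries (20.3% of all tested genes), and the median difference was -0.74 against -0.012 over all tested genes. Under TAC, 28 were lower and 5 higher, 15 of them with both Cko libraries below both WT libraries (19.4% of all tested genes), and the median was -0.34 against 0.012. With all 4 Cko libraries below all 4 WT libraries there were 4 (2.35% of all tested genes).

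None of the 33 passed the limma threshold between genotypes or for the interaction, with 18 under an unadjusted p of 0.05 under sham, 9 under TAC, 20 averaged over surgeries and 3 for the interaction, and limma-voom called 0 in each. Fam107a, whose protein binds actin, had the smallest p under sham. It was at 1.22 and 1.05 FPKM in Cko TAC, 0.759 and 0.996 FPKM in Cko sham, 1.54 and 2.09 FPKM in WT TAC, and 4.25 and 3.48 FPKM in WT sham. The WT sham pair was the highest and the Cko sham pair the lowest. Cko minus WT under sham was -1.66 (SE 0.191, adjusted p = 0.117), with both Cko libraries lower. The period gene Per1, a clock gene with a receptor element, followed with -1.97 (SE 0.290, adjusted p = 0.180), and the transcription factor gene Cebpb with -1.37 (SE 0.236, adjusted p = 0.246), again with both Cko libraries lower.

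Under TAC the 3 smallest p-values belonged to Fbxo32, Adamts1 and Rhob, and none passed. Fbxo32, the gene of the muscle ubiquitin ligase atrogin-1, was at 9.80 and 8.86 FPKM in Cko TAC, 11.04 and 9.97 FPKM in Cko sham, 14.9 and 15.1 FPKM in WT TAC, and 14.99 and 16.2 FPKM in WT sham. Its 4 Cko libraries were below its 4 WT libraries, and the surgeries differed little in wild type. Cko minus WT under TAC was -0.66 (SE 0.121, adjusted p = 0.449). Adamts1, a secreted protease gene, had -1.23 (SE 0.275, adjusted p = 0.450), and the small GTPase gene Rhob had -0.46 (SE 0.149, adjusted p = 0.509). For the interaction Fam107a had 1.17, Cebpb 1.31 and Per1 1.29, each with an adjusted p of 0.911. Averaged over surgeries, Fam107a had -1.08 and Fbxo32 -0.61, each with an adjusted p of 0.145, and Per1 had -1.32 with an adjusted p of 0.153.

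After TAC in wild type, 6 of the 33 passed, 5 lower and 1 higher, where 13.2% of all tested genes passed (7.65% lower and 5.57% higher), and the median was -0.32 against 0.010 over all tested genes. Arrdc2, an arrestin-domain gene, was at 2.25 and 1.65 FPKM in WT TAC against 11.7 and 6.63 FPKM in WT sham, and fell by 1.94 on the log2 scale (SE 0.336, adjusted p = 0.0206). Per1 was at 5.68 and 5.56 FPKM in WT TAC against 12.8 and 19.5 FPKM in WT sham, and fell by 1.41 (SE 0.290, adjusted p = 0.0271). Both genes were lower in both TAC libraries with room between the groups. Rgs2, a brake on Gq signalling, fell by 1.21 (adjusted p = 0.0331), Cebpb by 1.01 (adjusted p = 0.0351) and Fam107a by 0.92 (adjusted p = 0.0271), each in both TAC libraries. Anxa1, the gene of the anti-inflammatory protein annexin A1, was the exception in direction. It rose to 31.5 and 32.6 FPKM in WT TAC, against 16.8 and 18.1 FPKM in WT sham, by 0.86 (SE 0.164, adjusted p = 0.0245). The count of 6 was 1 without either WT sham library, 0 without WT TAC replicate 1, and 3 without either Cko sham library.

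After TAC in Piezo1-Cko hearts, 1 of the 33 passed, where 1.49% of all tested genes did, and the median was -0.042 against -0.00091 over all tested genes. That gene was again Anxa1, which rose to 39.1 and 32.0 FPKM in Cko TAC, against 13.4 and 17.7 FPKM in Cko sham, by 1.17 (SE 0.164, adjusted p = 0.0338). The call was lost without Cko sham replicate 1, Cko sham replicate 2 or Cko TAC replicate 1, where the count was 0, and the count was 2 without either WT TAC library. Per1 was at 2.78 and 3.98 FPKM in Cko TAC against 2.74 and 4.85 FPKM in Cko sham, with overlap. Averaged over genotypes 7 of the 33 passed, a share below the 25.4% of all tested genes. Anxa1 and the metallothionein gene Mt2 were higher after TAC, by 1.02 and 1.56, and Arrdc2, Klf15, Rgs2, Per1 and Rhob were lower, by -1.40, -1.04, -0.83, -0.76 and -0.35. That count was 4 without WT sham replicate 1, 4 without Cko sham replicate 1, 2 without Cko sham replicate 2 and 4 without Cko TAC replicate 1. Klf15 encodes a transcription factor that glucocorticoids induce in heart and muscle. It was at 4.99 and 4.52 FPKM in Cko TAC, 9.38 and 11.1 FPKM in Cko sham, 6.43 and 10.3 FPKM in WT TAC, and 23.2 and 13.0 FPKM in WT sham, lower in both TAC libraries within each genotype.

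**Figure D4:**
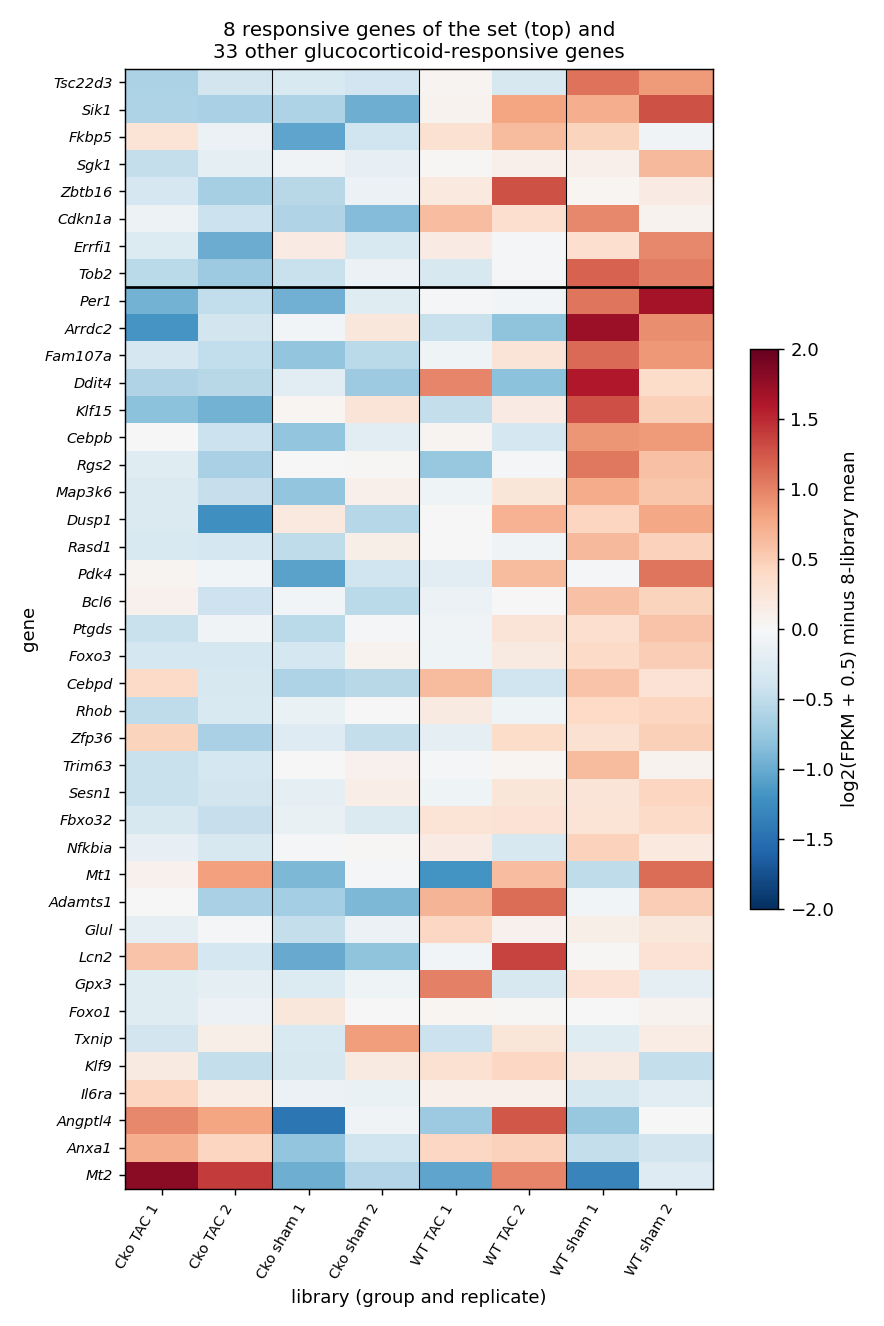
Level of each gene (rows) in each library (columns), as log2(FPKM + 0.5) minus the mean of the 8 libraries (colour, from -2 to 2). The 8 responsive genes of the set stand above the line and 33 other glucocorticoid-responsive genes below it, ordered by their WT sham level. Columns run from Cko TAC through Cko sham and WT TAC to WT sham, which has the highest group mean for 22 of the 33.

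Of 12 genes of the receptor's chaperone machine, 5 fell after TAC in wild type, where 7.65% of all tested genes fell, led by Fkbp4, whose protein FKBP52 favours hormone binding and movement to the nucleus. Fkbp4 was at 58.5 and 86.9 FPKM in WT TAC against 158 and 161 FPKM in WT sham, and fell by 1.16 (SE 0.201, adjusted p = 0.0203). Hspa8, an HSP70-family gene, fell by 0.96 (adjusted p = 0.0298), the HSP70 cofactor gene Bag1 by 0.71 (adjusted p = 0.0369), the p23 gene Ptges3 by 0.56 (adjusted p = 0.0246) and the kinase cochaperone gene Cdc37 by 0.44 (adjusted p = 0.0487), in both TAC libraries each. In Piezo1-Cko none passed by limma and 2 had an unadjusted p under 0.05, while limma-voom called Fkbp4, as did limma without WT TAC replicate 1 or WT TAC replicate 2. Fkbp4 itself was at 75.3 and 91.2 FPKM in Cko TAC against 155 and 167 FPKM in Cko sham, with no overlap. Averaged over genotypes 6 passed, where 25.4% of all tested genes did: those 5, lower, and the inducible HSP90 gene Hsp90aa1, higher by 0.56 (adjusted p = 0.0329). The count of 5 in wild type was 1 without WT sham replicate 1, 0 when WT sham replicate 2 or WT TAC replicate 1 was left out, 3 without WT TAC replicate 2, and 1 without either Cko sham library. The count of 6 was 3 without WT sham replicate 2 and without WT TAC replicate 1, and 2 without Cko sham replicate 1, Cko sham replicate 2 or Cko TAC replicate 1. None of the 12 passed between genotypes or for the interaction by limma or limma-voom, with 1 under an unadjusted p of 0.05 under sham, 1 under TAC and 2 for the interaction.

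Of 10 genes that supply or clear the hormone, 6 could be tested. H6pd, whose enzyme feeds cofactor to the activating enzyme, ran from 5.65 to 9.96 FPKM over the 8 libraries, the transporter gene Abcb1a from 5.39 to 9.84 FPKM and the reductase gene Akr1c14 from 2.93 to 7.59 FPKM. The activating enzyme gene Hsd11b1 was at 3.56 and 3.20 FPKM in Cko TAC, 7.89 and 6.45 FPKM in Cko sham, 1.94 and 3.59 FPKM in WT TAC, and 3.72 and 3.08 FPKM in WT sham. It was highest in Cko sham, and averaged over genotypes it fell by 0.64 after TAC (SE 0.173, adjusted p = 0.0337). That call was lost without any 1 library other than WT TAC replicate 2. Hsd11b2, the inactivating enzyme gene, did not exceed 0.324 FPKM in any library. Serpina6, Cyp11b1 and Cyp11b2, for the carrier protein and the last steps of steroid synthesis, were listed at 0 in all 8.

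Of 10 salt-inducible kinase and CREB genes 0 passed in any comparison by limma or limma-voom, with 0 to 3 per comparison under an unadjusted p of 0.05.

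The p53 list set Cdkn1a beside genes that share its other input, p53, and beside Trp53, the gene of p53 itself. Of the 12 genes on that list, 6 passed and were higher after TAC averaged over genotypes, where 11.9% of all tested genes were. They were Gdf15 by 1.75, Phlda3 by 0.60, Sesn2 by 0.55, Plk2 by 0.52, Zmat3 by 0.45 and Eda2r by 0.41 (adjusted p from 0.0266 to 0.0474). Plk2 alone passed in wild type, higher by 0.85 (adjusted p = 0.0312). Between genotypes none passed by limma or limma-voom, with 2 under an unadjusted p of 0.05 under either surgery and 6 averaged over them, and they went both ways, with 8 higher and 4 lower in Piezo1-Cko under sham and 6 higher and 6 lower under TAC. The count of 6 was 0 without Cko TAC replicate 1, Cko sham replicate 1 or Cko sham replicate 2, 1 without WT sham replicate 2, 2 without Cko TAC replicate 2, and 3 without either WT TAC library. Plk2 in wild type was lost without WT sham replicate 1, WT TAC replicate 1, WT TAC replicate 2, Cko sham replicate 1 or Cko sham replicate 2.

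Of 12 relatives of the 10 genes 10 could be tested, and 3 passed for TAC averaged over genotypes, where 25.4% of all tested genes did. The antiproliferative gene Btg1, of the same family as Tob2, rose after TAC in wild type by 0.50 (adjusted p = 0.0422) and averaged over genotypes by 0.58 (adjusted p = 0.00657). Averaged over genotypes the immunophilin gene Fkbp1a rose by 0.37 (adjusted p = 0.0235) and Cdkn1c, the p57 gene, fell by 0.99 (adjusted p = 0.0151). Btg1 in wild type was lost without any of the 4 WT libraries or either Cko sham library, and the count was 2 without either Cko TAC library. The count of 3 was 1 without either Cko sham library, and 2 without WT sham replicate 1, WT sham replicate 2, WT TAC replicate 2 or Cko TAC replicate 1.

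Clock genes differed widely between replicates in 3 of the 4 groups. The clock output gene Dbp was at 35.5 and 49.9 FPKM in Cko TAC, 1.94 and 51.1 FPKM in Cko sham, 2.37 and 23.0 FPKM in WT TAC, and 3.22 and 28.8 FPKM in WT sham, so only Cko TAC held 2 libraries at a like level. The median absolute log2 difference between replicates over 14 clock genes was 0.20 in Cko TAC, 1.30 in Cko sham, 0.72 in WT TAC and 1.46 in WT sham. Over the 10 genes of the set it was 0.30, 0.30, 0.29 and 0.43 in the same groups. Of the clock genes 1 passed, Bhlhe41, higher by 0.74 after TAC averaged over genotypes (adjusted p = 0.0457), which was lost without 6 of the 8 libraries, all but WT sham replicate 2 and Cko sham replicate 2. The part of the clock in the differences above was not tested.

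Other marker lists differed in several ways, some with surgery and some between single libraries. Fibroblast marker sums ran from 281 to 518 FPKM under TAC and from 143 to 238 FPKM under sham. Of the 5 markers (Col1a1, Col3a1, Pdgfra, Dcn, Tcf21) Col1a1 and Col3a1 rose after TAC in wild type and averaged over genotypes, and Col3a1 in Piezo1-Cko. The shares of all tested genes that rose were 5.57%, 11.9% and 0.948%. Dcn was lower after TAC in Piezo1-Cko, at 114 and 103 FPKM against 133 and 123 FPKM, and overlapped in wild type. Tcf21 overlapped in both genotypes, and Pdgfra was higher after TAC in wild type alone. All 5 endothelial markers (Pecam1, Cdh5, Kdr, Tie1, Emcn) were higher in both Cko sham libraries than in both WT sham libraries, with summed FPKM of 300 and 297 against 166 and 183, and none passed the threshold. The share of all tested genes with that order was not counted. Under TAC their sums overlapped, at 262 and 324 FPKM in Cko TAC against 198 and 302 FPKM in WT TAC. Of 5 macrophage markers, 5 rose after TAC averaged over genotypes, where 11.9% of all tested genes did. Of 5 heart muscle cell markers 3 fell (Myh6, Tnnt2 and Pln), where 13.5% of all tested genes did. Adipocyte markers summed to 6.88 FPKM in WT sham replicate 1 and to at most 0.906 FPKM in the other 7. Smooth muscle and pericyte markers summed to 256 and 544 FPKM in WT sham. They summed to 294 to 460 FPKM in the Cko TAC, Cko sham and WT TAC libraries. The part of these cells in the differences of the 10 genes was not tested.

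Genes with the profile most like each of 4 genes were found as the smallest root-mean-square difference of centred log2(FPKM + 0.5) over the 8 libraries, among 10833 genes with a mean of at least 1 FPKM. For Tsc22d3 they were Irf2bp2, Dusp18 and Plekhf1, at 0.21, 0.22 and 0.22. For Fkbp5 they were Ppp1r3a, Stc1 and Efna5, at 0.20, 0.21 and 0.24. For Nr3c1 they included Dscr3 and Tmem209, at 0.041 and 0.059, and for Nr3c2 they were Krtcap3, Pet100 and Vwf, at 0.14, 0.15 and 0.15. The level profile of Nr3c1 is nearly flat, which many genes share.

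The genes of the set are spread over 8 chromosomes, except that Fkbp5, Cdkn1a and Sik1 lie within 3.46 Mb of chromosome 17, with 573 kb between Fkbp5 and Cdkn1a. Nr3c2 is on the same chromosome as Piezo1, 45.2 Mb away. Exons of Cdkn1a, Nr3c2 and Tob2 overlap a gene on the opposite strand over 7.68%, 3.82% and 4.34% of their length, and without a stated strand setting reads from the 2 strands cannot be told apart there.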

How the data were processed

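RNA from 8 mouse heart libraries was extracted with Trizol and built into libraries with an NEBNext Ultra kit from 1 microgram of total RNA, per the labels' protocols. Tools in the submitters' processing notes are featureCounts 1.5.0-p3, Bowtie 0.12.2 and CASAVA 1.8, and 2 builds, mm10 and mm8, are listed there without saying which was used for what. The strand setting is not given in the sources used here. Of 54409 identifiers shared with GENCODE release M21 (GRCm38), 53499 had the same coordinates in the deposited table.

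The table that the authors deposited is named as counts, but its values are FPKM. Times gene length, they are whole numbers of a fixed unit in each library, with a tolerance of 0.01 reads, and reads were recovered from that. They summed to 15574769 to 17313084 per library, and mitochondrial genes took 17.6% to 24.4% of them.

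Values of log2(FPKM + 0.5) were fitted with limma 3.58.1 in R 4.3.3 (1 term per group, 8 libraries, 4 residual degrees of freedom, trend and robust moderation) for the 13928 genes with at least 0.5 FPKM and 10 reads in at least 2 libraries, which all 10 genes of the set passed. Tests were two-sided, with Benjamini-Hochberg adjustment over those genes in each of 7 comparisons and a threshold of 0.05. The comparison of genotypes averaged over surgeries, and the alternative of protein-coding genes alone, were chosen after seeing the data. The steps were also tested on simulated data. Replicates were no copies of each other (chi-square per degree of freedom 17.3 to 44.2).

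The 10 genes and the gene lists were chosen with earlier results of these data known. Named beside the 10 are every listed gene past the threshold, up to 8 per list and comparison, the 3 smallest p-values of the list of other glucocorticoid-responsive genes where none passed, and the 3 nearest profiles of 4 genes. Genes outside that rule are named as 1 of a small count. Some results under that rule are not reported here. Promoter letters and start sites are from RefSeq on GRCm38.p6, and those of Nr3c1 are not shown. Alternatives were other pseudocounts, no filter, median-of-ratios scaling, limma-voom on recovered reads, the 4 libraries compared alone, a replicate block and each library left out. Scaling factors in the deposited values differed from median-of-ratios factors by -0.498% to 0.294%. Limma-voom took the library sizes of the deposited values. Neither alternative therefore tried a different scaling between libraries.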

Additional observations from a re-analysis of the deposited data

Results flagged for a closer look

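Among the 10 genes and the other listed genes that were tested, markers included, 4 moved in opposite directions after TAC in the 2 genotypes with no overlap of libraries in either. The same count was not made over all tested genes, so nothing is read from this number. Fam107a was at 1.22 and 1.05 FPKM in Cko TAC against 0.759 and 0.996 FPKM in Cko sham, and at 1.54 and 2.09 FPKM in WT TAC against 4.25 and 3.48 FPKM in WT sham, and its Cko response minus its WT response was 1.17 on the log2 scale. The cochaperone gene Stip1 was at 58.4 and 53.3 FPKM in Cko TAC against 52.1 and 51.7 FPKM in Cko sham, and at 45.0 and 50.6 FPKM in WT TAC against 59.1 and 57.8 FPKM in WT sham, and the same difference was 0.39. The HSP40-family gene Dnajb1 was at 8.09 and 7.82 FPKM in Cko TAC against 7.76 and 6.44 FPKM in Cko sham, and at 7.501 and 8.13 FPKM in WT TAC against 11.2 and 10.8 FPKM in WT sham, and the same difference was 0.63. The endothelial marker gene Kdr was at 36.2 and 37.5 FPKM in Cko TAC against 59.98 and 48.8 FPKM in Cko sham, and at 31.1 and 50.04 FPKM in WT TAC against 29.05 and 27.8 FPKM in WT sham, and the same difference was -1.01. The limma interaction gave an adjusted p of 0.911 for each of the 4, so the difference between genotypes did not pass. At Fam107a and Dnajb1 both WT sham libraries, which also stand apart at Gapdh, were above the other 6.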

How the results depend on the processing

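No called difference of the 10 genes or of the 33 other responsive genes changed sign under the alternatives run. Signs of other called genes were not compared across the alternatives. Among differences of the 10 genes that did not pass, 13 of 70 had the other sign at 1 or more settings, 30 of 1090 settings in all. Their own values were between -0.17 and 0.23 on the log2 scale, and they included the interaction of Errfi1 (6 settings), the interaction of Nr3c2 (4) and TAC minus sham of Cdkn1a in wild type (2, from -0.49 to 0.42). The log2 fold changes of the 10 genes in 7 comparisons moved by less than the spread between replicates at 1060 settings and by more at 30, and calls of other responsive genes kept their side of the threshold at 148 settings and lost it at 69. Several settings leave a fold change as it was by construction. They are no filter, protein-coding genes alone, the 4 libraries alone, a replicate block, and leaving out a library of a group not compared. The totals of 1060 and 1090 include such settings, so they do not measure stability. With 2 libraries a group the number of calls depends on single libraries, and the cause was not tested.

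For TAC against sham in wild type, 1842 genes passed, against 247 with no filter on low values, 272 when the 4 libraries were fitted alone, and 74 to 2120 with each library left out. Of the 10 genes 2 passed, against 1 with no filter, 1 with the 4 libraries alone and 1 to 3 with each library left out, and Tob2 passed under 15 of 16 alternatives and Tsc22d3 under 12. Of the 33 other responsive genes 6 passed, against 0 with no filter, 0 with the 4 libraries alone and 0 to 6 with each library left out. In Piezo1-Cko 208 genes passed, against 0 with no filter, 390 by limma-voom, 397 with the 4 libraries alone, 379 with protein-coding genes alone and 0 to 387 with each library left out. Of the 33, 1 passed there, against 0, 3 and 0 to 2 with no filter, the 4 libraries alone and each library left out. Averaged over genotypes 3537 passed, against 1927 with no filter and 1332 to 3669 with each library left out. Of the 10, 3 passed there, against 1 to 4 with each library left out, and of the 33, 7 passed, against 3 with no filter and 2 to 9 with each library left out.

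For Piezo1-Cko against wild type, 3 genes passed under sham, against 1 with no filter and 1 to 4 with each library left out, and 0 of the 10, against 1 by limma-voom. Under TAC 0 passed, against 1 with the 4 libraries alone and 0 to 21 with each library left out, the 21 without WT TAC replicate 2. Averaged over surgeries 1 passed, against 0 with no filter, 2 by limma-voom, 2 with protein-coding genes alone and 0 to 3 with each library left out. For the interaction 1 passed, against 2 with no filter and 1 to 3 with each library left out.

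The labels number replicates 1 and 2 in every group. Over all tested genes the correlation of the replicate 1 minus 2 difference between groups was 0.0256 to 0.2476. Of 14 clock genes, replicate 1 was the higher at 3 in Cko TAC, 4 in Cko sham, 5 in WT TAC and 3 in WT sham. What libraries of the same number share was not tested. A replicate block gave 2187 calls for TAC in wild type, 236 in Piezo1-Cko and 3748 averaged over genotypes, and 2, 0, 1 and 1 for genotype under sham, under TAC, averaged, and the interaction.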
